A study of Caenorhabditis elegans with 16 samples.

Results

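The scrm genes of Caenorhabditis elegans, scrm-1 to scrm-8, encode the worm's family of phospholipid scramblases. All 8 were found in the count table by matching their gene identifiers to symbols, so they make up 8 of the 20447 genes measured. The set was drawn up by name, but scrm-4 was selected on its own levels in these same libraries, across the 4 strains and both temperatures, so its values are given as a description and no contrast of it was tested. The other 7 genes were tested as part of the whole table.

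A lipid bilayer is asymmetric, and phosphatidylserine (PS) is kept in its inner leaflet by flippases, which pump it inwards at the expense of ATP. Scramblases move phospholipids in both directions without ATP and so can collapse this asymmetry. PS that reaches the outer leaflet marks dying cells for engulfment, and in C. elegans SCRM-1, together with the mitochondrial protein WAH-1, promotes PS exposure on dying cells. The worm proteins are relatives of the phospholipid scramblases PLSCR of mammals.

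The study compared poly-A mRNA of whole day 1 adult worms in 4 strains: the double mutant daf-16(mu86); ets-4(rrr16), a second double mutant that joins the allele pqm-1(ok485) to ets-4(rrr16), the single mutant ets-4(rrr16), and wild type (N2). They are called here the daf-16 double mutants, the pqm-1 double mutants, ets-4(-) and wt. Each strain was sampled after 24 h at 4 °C, which followed 2 h of adaptation at 10 °C, and at the cultivation temperature of 20 °C, with 2 replicates per strain and temperature, 16 libraries in all, each from about 1000 animals. ETS-4 is an ETS-family transcription factor, DAF-16 is the FOXO factor of insulin signaling and PQM-1 is a zinc finger factor, and the question was which genes change in the cold when ets-4 is lost and need DAF-16 or PQM-1 to do so. All 3 mutant strains carry ets-4(rrr16), and wt alone has intact ets-4. Because whole animals were used, fewer cells of a type and less RNA per cell cannot be told apart.

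Libraries held 36049588 to 43039567 counts at 4 °C and 32046029 to 48770269 counts at 20 °C. At 4 °C the mutated genes followed the labels: ets-4 was lower in ets-4(-) than in wt (log2 fold change -3.50), daf-16 was lower in the daf-16 double mutants than in ets-4(-) (-1.11) and pqm-1 was lower in the pqm-1 double mutants than in ets-4(-) (-0.74). At 20 °C, pqm-1 was lower in the pqm-1 double mutants (-1.33), but the ets-4 transcript went against its label. In CPM, the count of a gene per 1000000 counts of its library, it stood at 76.9 and 159 CPM in the libraries labelled ets-4(-), against 26.3 and 25.9 CPM in wt, and daf-16 did not pass the test between the daf-16 double mutants and ets-4(-) (-0.33, adjusted p = 0.269). The metallothionein gene mtl-1, picked after its values were seen, was at 0.0927 and 0.176 CPM in the daf-16 double mutants at 20 °C, against 0.5997 and 1.577 CPM in ets-4(-). The ets-4 transcript was also high at 20 °C in the libraries labelled daf-16 double mutant (84.9 and 186 CPM) and pqm-1 double mutant (107 and 202 CPM). Y17G7B.23, a gene on none of the lists and also picked after its values were seen, had 13.6 and 13.1 CPM in the pqm-1 double mutants at 4 °C. At 20 °C it had 4.70 and 5.33 CPM there. In every other library it was at most 0.266 CPM. The cause of the ets-4 levels was not tested. The 20 °C mutant samples are therefore called the libraries labelled with their genotype.

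On the RPKM scale, CPM divided by the exon length in kilobases, which allows levels of different genes to be compared, scrm-1 had the highest median level over the 16 libraries, 8.44 RPKM (range 4.39 to 9.29). scrm-4 followed with a median of 3.94 RPKM and the widest range in RPKM, 1.15 to 11.9. Then came scrm-3 (median 1.23 RPKM), scrm-2 (0.965 RPKM), scrm-5 (0.604 RPKM), scrm-8 (0.335 RPKM), scrm-6 (0.260 RPKM) and scrm-7 (0.191 RPKM). The ranges of any neighbours in this order overlapped. In ets-4(-) at 4 °C, scrm-4 reached 9.67 ± 3.17 RPKM and scrm-1 stood at 7.94 ± 0.12 RPKM (SD, n = 2 each), so that these levels overlapped. In wt at 4 °C the same genes were at 1.19 ± 0.05 RPKM and 8.13 ± 0.56 RPKM.

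In WBcel235, 4 of the genes lie on chromosome I. They are scrm-6 (WBGene00009753) at I:11253256-11255927 on the plus strand, scrm-4 (WBGene00008681) at I:11680899-11682441 and scrm-1 (WBGene00011935) at I:11688673-11690836, both on the minus strand, and scrm-2 (WBGene00014200) at I:13235348-13236663 on the plus strand. scrm-4 and scrm-1 are 6231 bases apart. daf-16 is on the same chromosome, 0.48 Mb from scrm-6, 0.9 Mb from scrm-4, 0.91 Mb from scrm-1 and 2.46 Mb from scrm-2. scrm-5 (WBGene00019531) at IV:4162421-4164480 and scrm-8 (WBGene00019530) at IV:4164692-4166230 lie in the same direction on the plus strand of chromosome IV with 211 bases between them. scrm-3 (WBGene00015437) at V:3355848-3357206 and scrm-7 (WBGene00013052) at V:14778203-14779744 are on the minus strand of chromosome V. All 8 are annotated as protein-coding, with 5 exon blocks in 7 of them and 6 in scrm-4.

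**Figure D1:**
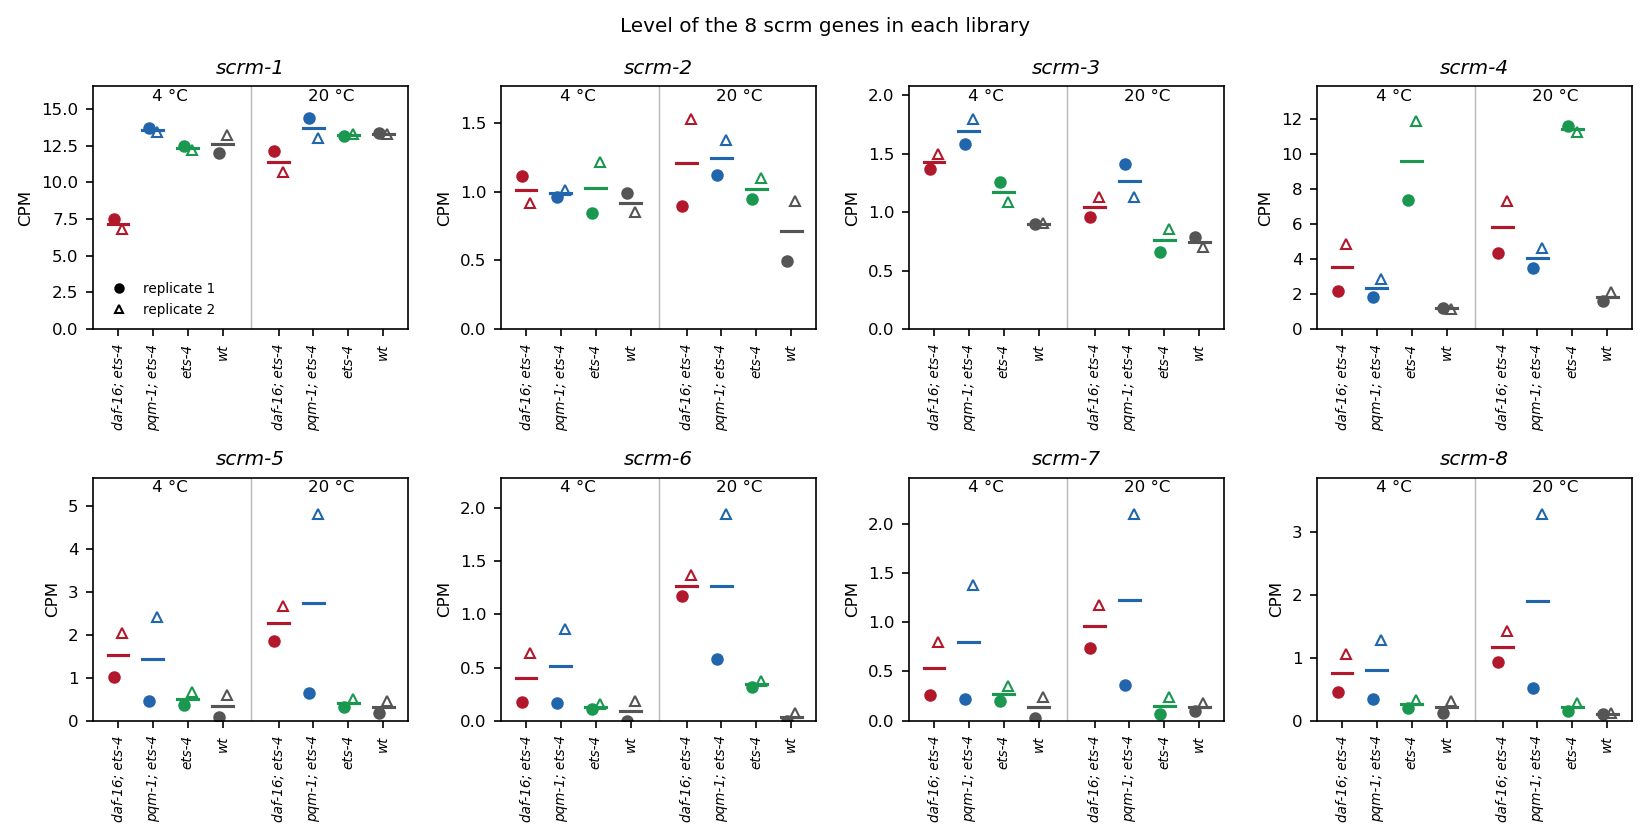
Level of each scrm gene in CPM (vertical axis, from 0) in every library, by strain and temperature; circles are replicate 1, triangles replicate 2 and bars the mean of both. scrm-4 is highest in ets-4(-) at both temperatures (7.38 and 11.84 CPM at 4 °C), scrm-1 is lowest in the daf-16 double mutants at 4 °C (7.49 and 6.82 CPM), and scrm-5 to scrm-8 are highest in replicate 2 of the pqm-1 double mutants at 20 °C.

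scrm-4 was higher in ets-4(-) than in every other strain. At 4 °C it had 2.19 and 4.85 CPM in the daf-16 double mutants, 1.83 and 2.86 CPM in the pqm-1 double mutants, 7.38 and 11.84 CPM in ets-4(-), and 1.22 and 1.15 CPM in wt. Both ets-4(-) libraries were above both libraries of each other strain, the double mutants lay between ets-4(-) and wt, and the 2 double mutants overlapped each other. Of all genes tested, 27.1% were higher without overlap in ets-4(-) than in wt, and 18.8% and 15.9% were lower without overlap in the daf-16 and the pqm-1 double mutants than in ets-4(-), shares from which nothing is read here, since the gene was picked for this pattern. The fitted log2 fold change was 2.97 ± 0.26 (SE) for ets-4(-) against wt, which is 7.84-fold, -1.49 ± 0.23 for the daf-16 double mutants against ets-4(-), and -2.04 ± 0.24 for the pqm-1 double mutants against ets-4(-). For the same reason these contrasts carry no test. Leaving out 1 library at a time moved the difference between ets-4(-) and wt between 2.52 (without wt replicate 2) and 3.43 (without wt replicate 1) on the log2 scale.

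At 20 °C the order of the strains was the same. scrm-4 stood at 4.35 and 7.32 CPM in the 20 °C libraries labelled daf-16 double mutant, 3.47 and 4.603 CPM in those labelled pqm-1 double mutant, 11.58 and 11.26 CPM in those labelled ets-4(-), and 1.60 and 2.09 CPM in wt. The log2 fold change was 2.65 ± 0.21 for ets-4(-) against wt, -1.01 ± 0.20 for the daf-16 double mutants against ets-4(-) and -1.51 ± 0.20 for the pqm-1 double mutants against ets-4(-). Again ets-4(-) overlapped no other strain, where 27.5% of all genes were higher without overlap in ets-4(-) than in wt and 23.2% and 21.9% were lower in the daf-16 and the pqm-1 double mutants than in ets-4(-). Between temperatures it was lower at 4 °C by log2 fold changes of -0.78 in the daf-16 double mutants, -0.81 in the pqm-1 double mutants, -0.30 in ets-4(-) and -0.63 in wt, and only in the pqm-1 double mutants and in wt did the libraries of both temperatures not overlap (30.0% and 36.1% of all genes were lower at 4 °C without overlap there).

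The study's own rule asks for a change of at least 2-fold in replicate 1 and in replicate 2 on the scale of log2(count + 8) after scaling to equal library size. On this scale scrm-4 in ets-4(-) exceeded wt at 4 °C by 2.41 and 3.21 in log2 units in the 2 replicates. Against ets-4(-), the daf-16 double mutants differed by -1.64 and -1.25 and the pqm-1 double mutants by -1.88 and -1.92. These values are a description too, since scrm-4 was chosen on them. Of the other 7 genes, scrm-5 alone passed this rule, with 1.11 and 1.39 for the daf-16 double mutants against ets-4(-), where 0.797% of all genes were higher by it. The rule is sensitive to single libraries. When 1 library was left out, the other replicate of its group stood in for both, so the rule then rested on 1 library of that group. With all libraries 2 scrm genes met it, scrm-4 counted in. More met it without replicate 1 of the pqm-1 or of the daf-16 double mutants. Fewer met it without replicate 2 of the daf-16 double mutants or replicate 1 of ets-4(-).

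The 3′ end of scrm-4 overlaps 77 exonic bases of kpc-1, a gene for a furin-like proprotein convertase on the opposite strand. The study's methods name a TruSeq library kit without saying if it keeps strand, and whether the counting used strand is not given in the sources used here. At 4 °C kpc-1 was at 23.1 and 22.9 CPM in the daf-16 double mutants, 22.05 and 22.23 CPM in the pqm-1 double mutants, 26.5 and 26.5 CPM in ets-4(-), and 21.7 and 19.7 CPM in wt. It was higher in ets-4(-) than in wt by 0.35 ± 0.07 in log2 units (edgeR adjusted p = 0.0269), against 2.97 for scrm-4. At 20 °C the same difference was 0.17 and did not pass the test. The part of the shared bases in the scrm-4 counts was not tested.

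The genes whose log2 CPM followed scrm-4 most closely over the 16 libraries, among 15775 genes, were Y48G1BM.6 (Pearson r = 0.908), WBGene00019575 (r = 0.877), lmd-5 (r = 0.868), ZK218.5 (r = 0.841) and C40A11.8 (r = 0.835). Libraries of a group share strain and temperature, so these values describe likeness and have no p. Mean levels of Y48G1BM.6 at 4 °C were 2.16 CPM in the daf-16 double mutants, 1.82 CPM in the pqm-1 double mutants, 3.11 CPM in ets-4(-) and 0.876 CPM in wt. For ZK218.5, the means were 0.167, 0.159, 1.28 and 0.0145 CPM in the same 4 groups. lmd-5, a gene of the LysM domain family, reached at most 0.833 CPM and WBGene00019575 at most 0.380 CPM, so their correlations rest on few counts.

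Among the 7 tested genes, scrm-1 was the one that fell with loss of daf-16 in the cold. At 4 °C it had 7.49 and 6.82 CPM in the daf-16 double mutants, 13.74 and 13.45 CPM in the pqm-1 double mutants, 12.46 and 12.19 CPM in ets-4(-), and 12.01 and 13.24 CPM in wt. Of all genes, 18.8% were lower without overlap in the daf-16 double mutants than in ets-4(-), a comparison with 1 strain only. For scrm-1, both daf-16 double mutant libraries lay below all others at 4 °C. The log2 fold change against ets-4(-) was -0.79 ± 0.11 (edgeR adjusted p = 0.00698), or a level of 0.578 times that in ets-4(-). This was the only one of the 7 genes called in this comparison, in which 3.86% of all genes passed the test and 2.11% were lower. scrm-1 did not pass the test between the pqm-1 double mutants and ets-4(-) (0.13 ± 0.10, adjusted p = 0.466) or between ets-4(-) and wt (-0.05 ± 0.11, adjusted p = 0.777).

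The scrm-1 call was lost in some fits while the size of the difference moved little. Without the replicate number as a block the fold change was again -0.79, with adjusted p = 0.0756. The call was also lost without replicate 1 or 2 of the daf-16 double mutants (adjusted p = 0.0696 and 0.105) and without replicate 1 or 2 of ets-4(-) (0.0767 and 0.0714), with fold changes from -0.866 to -0.705. At 20 °C scrm-1 was at 12.14 and 10.68 CPM in libraries labelled daf-16 double mutant, against 13.13 and 13.30 CPM in those labelled ets-4(-), a difference of -0.22 ± 0.12 that did not pass the test (adjusted p = 0.293).

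Within the daf-16 double mutants scrm-1 was also lower at 4 °C (7.49 and 6.82 CPM) than at 20 °C (12.14 and 10.68 CPM). It fell by 0.67 in log2 units (SE 0.11, edgeR adjusted p = 0.000267), and this call held in each alternative fit and without any single library. The other 3 strains gave -0.01 in the pqm-1 double mutants, -0.10 in ets-4(-) and -0.08 in wt, none past the test. The difference between the cold responses of the daf-16 double mutants and ets-4(-) was itself -0.57 ± 0.15 and did not pass the test over all genes (adjusted p = 0.35). The gene with the most similar profile was dhs-30, of the short-chain dehydrogenase family (r = 0.931), with mean levels at 4 °C of 21.5 CPM in the daf-16 double mutants, 34.1 CPM in the pqm-1 double mutants, 31.9 CPM in ets-4(-) and 31.5 CPM in wt.

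scrm-2 and scrm-3 were called in none of the comparisons. scrm-2 ranged from 0.492 to 1.53 CPM with overlapping strains at 4 °C, where it had 0.842 and 1.21 CPM in ets-4(-) and 0.988 and 0.852 CPM in wt. The largest fitted strain difference of scrm-2 was 0.56 ± 0.33 in log2 units, for ets-4(-) against wt at 20 °C (adjusted p = 0.416). scrm-3 had 1.367 and 1.497 CPM in the daf-16 double mutants at 4 °C, 1.59 and 1.80 CPM in the pqm-1 double mutants, 1.26 and 1.09 CPM in ets-4(-), and 0.901 and 0.906 CPM in wt. scrm-3 was thus higher without overlap in both double mutants than in ets-4(-), and in ets-4(-) than in wt, as were 19.6%, 17.2% and 27.1% of all genes in the same 3 comparisons, but the fold changes of 0.28 ± 0.25 for the daf-16 double mutants against ets-4(-), 0.52 ± 0.25 for the pqm-1 double mutants against ets-4(-) and 0.36 ± 0.26 for ets-4(-) against wt did not pass the test (adjusted p = 0.561, 0.225 and 0.360). scrm-3 held 21 to 73 counts per library.

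scrm-3 was higher at 4 °C than at 20 °C without overlap in all 4 strains. In ets-4(-), where the fitted difference was 0.62 ± 0.27, it did not pass the test (adjusted p = 0.0861), and in the other strains the fits gave 0.44 in the daf-16 double mutants, 0.41 in the pqm-1 double mutants and 0.27 in wt. Of all genes, 32.9% were higher at 4 °C without overlap in the daf-16 double mutants, 31.2% in the pqm-1 double mutants, 33.3% in ets-4(-) and 34.6% in wt. The most similar profiles were those of lgc-37, of the ligand-gated ion channel family, for scrm-2 (r = 0.849) and of W10C8.6 for scrm-3 (r = 0.928).

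scrm-5, scrm-6, scrm-7 and scrm-8 were low and were highest in the double mutants. At 20 °C scrm-5 was at 1.85 and 2.68 CPM in libraries labelled daf-16 double mutant, 0.649 and 4.82 CPM in those labelled pqm-1 double mutant, 0.316 and 0.504 CPM in those labelled ets-4(-), and 0.172 and 0.453 CPM in wt. scrm-7 had 0.741 and 1.17 CPM in the daf-16 double mutants, 0.358 and 2.10 CPM in the pqm-1 double mutants, 0.0631 and 0.241 CPM in ets-4(-), and 0.0985 and 0.176 CPM in wt. scrm-8 had 0.927 and 1.43 CPM, 0.515 and 3.30 CPM, 0.158 and 0.285 CPM, and 0.0985 and 0.126 CPM in the same order of strains. For all 3 genes both double mutants lay above ets-4(-) without overlap, where 25.3% and 25.6% of all genes were higher without overlap in the daf-16 and the pqm-1 double mutants, and the replicates of the pqm-1 double mutants lay far apart.

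In the fits at 20 °C, scrm-5, scrm-7 and scrm-8 rose in the pqm-1 double mutants against ets-4(-), 3 of the 7 genes tested where 9.33% of all genes passed the test and 7.71% were higher. The log2 fold changes were 2.47 ± 0.61 for scrm-5 (edgeR adjusted p = 0.0497), 2.85 ± 0.57 for scrm-7 (0.0217) and 2.89 ± 0.59 for scrm-8 (0.0251). In the daf-16 double mutants against ets-4(-), scrm-7 rose by 2.75 ± 0.59 (adjusted p = 0.0361), 1 of 7 where 4.34% of all genes passed and 3.65% were higher. scrm-8 and scrm-5 had fold changes of 2.49 and 2.57 there and missed the threshold (adjusted p = 0.0561 and 0.063), as did scrm-6 with 1.92 (0.081). Between ets-4(-) and wt at 20 °C none of the 7 was called by edgeR or by DESeq2, 1 had an unadjusted p under 0.05, and 1.29% of all genes passed. That gene was scrm-6, with 0.316 and 0.372 CPM in the libraries labelled ets-4(-) and 0 and 0.0756 CPM in wt (adjusted p = 0.133), and it passed without replicate 1 or 2 of the daf-16 double mutants (0.0105 and 0.0393) or replicate 1 of the pqm-1 double mutants (0.0482).

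These calls rest on few counts and on single libraries. In the libraries labelled ets-4(-), scrm-7 had 2 and 11 counts, scrm-8 had 5 and 13 and scrm-5 had 10 and 23. The filter on low counts kept scrm-7 and scrm-8 at 20 °C through the double mutants, the groups called higher. Without replicate 2 of the pqm-1 double mutants, the fold changes against ets-4(-) were 1.07 for scrm-5, 1.69 for scrm-7 and 1.55 for scrm-8, with adjusted p = 0.375, 0.321 and 0.248. Without replicate 1 of ets-4(-) the adjusted p were 0.137, 0.099 and 0.0985 for scrm-5, scrm-7 and scrm-8, and without replicate 2 of ets-4(-) 0.53, 0.321 and 0.405. The scrm-5 call was also lost without either wt library (0.113 and 0.112) and with library totals in place of TMM (0.0525). In the daf-16 double mutants, the scrm-7 call was lost without either ets-4(-) library (0.17 and 0.422) or either wt library (0.0562 and 0.0531), and without the replicate block none of the calls at 20 °C remained. Leaving out a library also added calls. In the daf-16 double mutants, scrm-5, scrm-6 and scrm-8 all passed without replicate 2 of the daf-16 double mutants and without replicate 1 or 2 of the pqm-1 double mutants (adjusted p from 0.00078 to 0.0192), and scrm-5 without replicate 1 of the daf-16 double mutants (0.0489). In the pqm-1 double mutants, scrm-6 passed without replicate 1 or 2 of the daf-16 double mutants (0.0122 and 0.0306) and without replicate 1 of the pqm-1 double mutants (0.00479).

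At 4 °C the same genes leaned the same way, with none past the test. scrm-5 had 1.03 and 2.05 CPM in the daf-16 double mutants, 0.456 and 2.42 CPM in the pqm-1 double mutants, 0.365 and 0.658 CPM in ets-4(-), and 0.0872 and 0.586 CPM in wt. scrm-8 had 0.456 and 1.05 CPM, 0.336 and 1.28 CPM, 0.196 and 0.329 CPM, and 0.116 and 0.320 CPM in that order. scrm-7 had 0.256 and 0.804 CPM, 0.216 and 1.38 CPM, 0.196 and 0.354 CPM, and 0.0291 and 0.240 CPM in the same order, so both double mutants overlapped ets-4(-). For scrm-5, scrm-6 and scrm-8 the daf-16 double mutants lay above ets-4(-) without overlap, as did 19.6% of all genes. In the pqm-1 double mutants scrm-5 overlapped ets-4(-), while scrm-6 and scrm-8 lay above it without overlap, as did 17.2% of all genes. For scrm-8 this rests on 0.336 against 0.329 CPM and turns to overlap when scaled to library totals (0.325 against 0.328 CPM). For the daf-16 double mutants against ets-4(-), the fold changes were 1.61 ± 0.46 for scrm-5 (edgeR adjusted p = 0.0949) and 1.49 ± 0.43 for scrm-8 (0.0945). For the pqm-1 double mutants against ets-4(-), scrm-8 gave 1.502 ± 0.421 (adjusted p = 0.0716) and scrm-5 1.29 ± 0.46 (0.127). scrm-7 gave 0.88 ± 0.53 in the daf-16 (edgeR adjusted p = 0.372) and 1.33 ± 0.50 in the pqm-1 double mutants (0.144). scrm-6 gave 1.53 ± 0.70 (0.243) and 1.82 ± 0.67 (0.134) in that order. None of the 7 genes was called between the pqm-1 double mutants and ets-4(-) by edgeR or DESeq2, with 4 at an unadjusted p under 0.05 and 5.9% of all genes called. Without replicate 1 of the pqm-1 double mutants, however, scrm-5, scrm-6, scrm-7 and scrm-8 all passed (adjusted p = 0.0033, 0.0416, 0.0179 and 0.00867). Without replicate 1 or 2 of the pqm-1 double mutants, scrm-5 and scrm-8 passed in the daf-16 double mutants (0.00426 and 0.00712 for scrm-5, 0.0226 and 0.0347 for scrm-8).

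Between ets-4(-) and wt at 4 °C, where 9.7% of all genes passed the test, none of the 7 tested genes was called by edgeR or DESeq2 and none had an unadjusted p under 0.05. The fold changes were 0.71 ± 0.54 for scrm-5, 0.57 ± 0.87 for scrm-6, 1.11 ± 0.65 for scrm-7 and 0.29 ± 0.50 for scrm-8. wt held 1 to 22 counts of scrm-5, scrm-7 or scrm-8 per library. In wt replicate 1 at both temperatures scrm-6 had no count, which by counting error alone allows up to 0.0825 CPM of the library total at 4 °C and 0.0717 CPM at 20 °C.

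**Figure D2:**
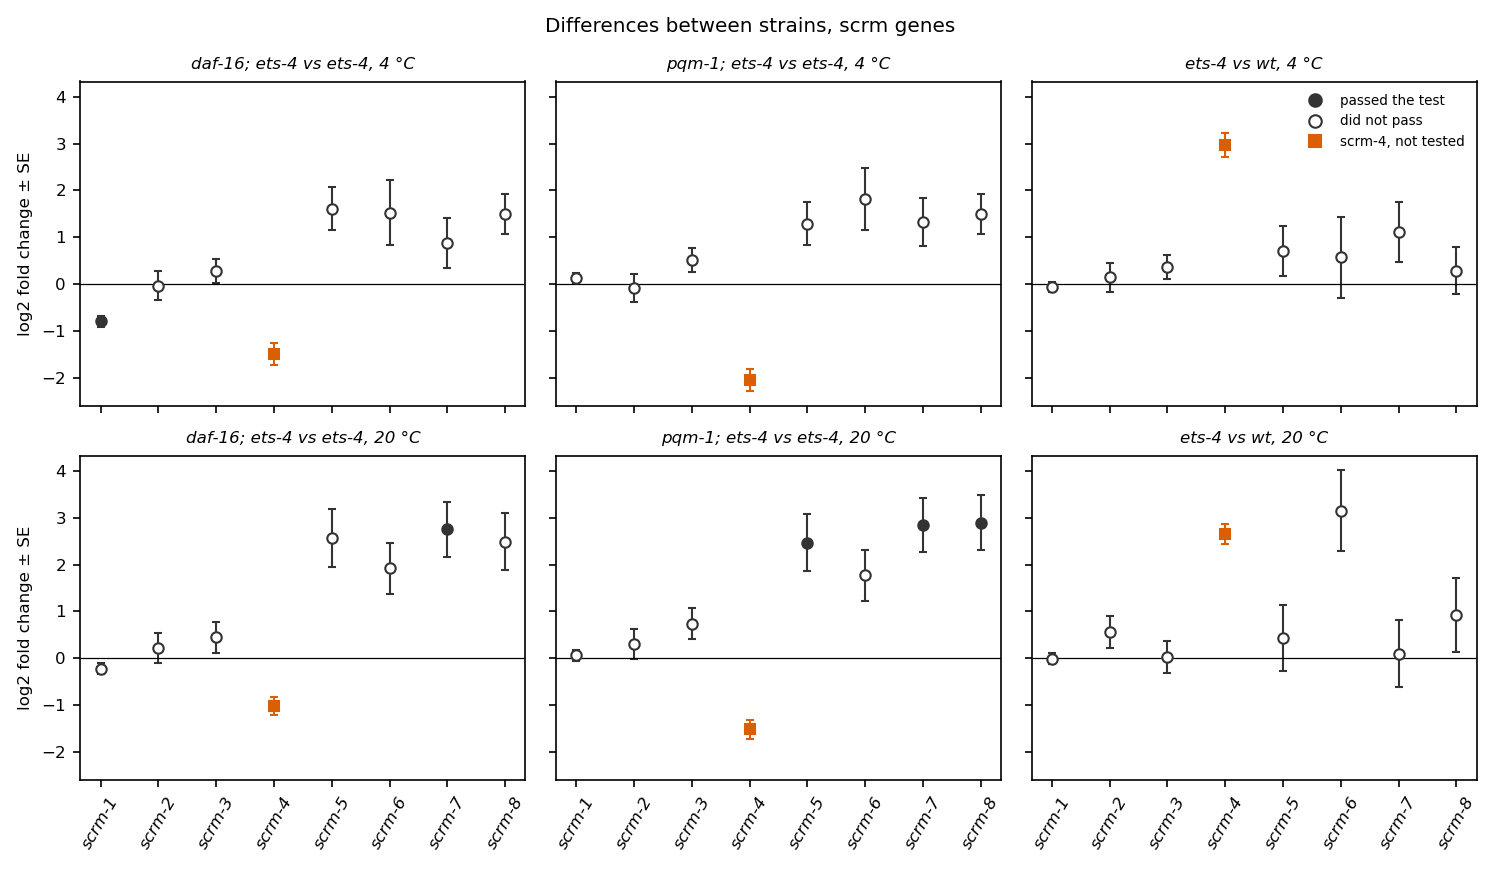
Fitted log2 fold change (vertical axis) of each scrm gene between strains at 4 °C (upper panels) and 20 °C (lower panels), with bars for the standard error; filled circles passed the edgeR test over all genes, open circles did not, and the orange square is scrm-4, which was not tested. scrm-1 is filled at 4 °C for the daf-16 double mutants (-0.79), scrm-7 at 20 °C for both double mutants (2.75 and 2.85), and scrm-5 and scrm-8 at 20 °C for the pqm-1 double mutants (2.47 and 2.89).

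scrm-5 to scrm-8 moved together from library to library. The Pearson correlation of log2 CPM over the 16 libraries was 0.871 to 0.970 for the 6 pairs among them, and -0.311 to 0.618 for the 16 pairs of these genes with scrm-1 to scrm-4. Replicate 2 was higher than replicate 1 in 8 of 8 groups for each of scrm-5, scrm-6, scrm-7 and scrm-8, in 6 of 8 for scrm-4 and scrm-2, in 5 of 8 for scrm-3 and in 2 of 8 for scrm-1. The points share libraries, strains and replicate cultures, so the correlations are descriptions. The most similar genes outside the family were K01D12.15 for scrm-5 (r = 0.980), C27D6.3 for scrm-6 (r = 0.978), cpb-2, of the CPEB family of RNA-binding proteins, for scrm-7 (r = 0.992), and F22B5.5 for scrm-8 (r = 0.978).

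A list of 12 sperm genes, among them genes for major sperm proteins, the sperm phosphatases gsp-3 and gsp-4 and the sperm surface proteins spe-9 and spe-38, ran alongside them. The summed level of scrm-5 to scrm-8 went from 0.233 to 12.2 CPM over the 16 libraries, and that of the sperm genes from 6.60 to 176 CPM. The lowest library for both sums was wt replicate 1 at 4 °C, and the highest for both was replicate 2 labelled pqm-1 double mutant at 20 °C. The scrm sum was between 3.52% and 9.05% of the sperm sum in every library, with a median of 5.24%. All 12 sperm genes were measured, and msp-10 was at 0 in both ets-4(-) libraries at 4 °C. At 20 °C the sperm sum was 89.8 and 116 CPM in libraries labelled daf-16 double mutant, 41.1 and 176 CPM in those labelled pqm-1 double mutant, 18.02 and 29.4 CPM in those labelled ets-4(-), and 7.43 and 21.3 CPM in wt. At 4 °C it was 21.1 and 56.0 CPM, 19.4 and 85.7 CPM, 18.2 and 28.4 CPM, and 6.60 and 15.3 CPM in that order of strains.

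Of the sperm genes, 2 of 12 rose in the daf-16 double mutants against ets-4(-) at 20 °C (median log2 fold change of the list 2.53) and 2 of 12 in the pqm-1 double mutants (median 2.42). Of all genes, 3.65% and 7.71% rose in these comparisons. At 4 °C, 0 of 10 and 2 of 10 tested sperm genes rose in the same comparisons (medians 0.99 and 1.34), beside 254 and 554 of all 14571 genes. The part of sperm content in the scrm-5 to scrm-8 differences was not tested. Other lists moved in the same 20 °C comparisons. In the daf-16 double mutants 3 of 9 intestinal, 1 of 6 body wall muscle and 1 of 6 epidermal genes rose, and in the pqm-1 double mutants 4 of 9, 3 of 6 and 2 of 6, while 3 of 10 oocyte and embryo genes fell in the pqm-1 double mutants and none of 7 neuronal genes was called in either. Of all 15405 genes tested, 249 fell in the pqm-1 double mutants. The summed epidermal level at 20 °C was 1990 and 1965 CPM in libraries labelled daf-16 double mutant, 1701 and 1924 CPM in those labelled pqm-1 double mutant, 1146 and 1259 CPM in those labelled ets-4(-), and 837 and 1029 CPM in wt, and the summed muscle level was 4788 and 6184 CPM, 5451 and 6767 CPM, 4216 and 4179 CPM, and 3051 and 3107 CPM in that order. The epidermal and muscle sums were thus higher in both double mutants than in ets-4(-), as scrm-5, scrm-7 and scrm-8 were, and their part in these differences was not tested. The intestinal sum overlapped ets-4(-) in both. It was 25776 and 30295 CPM in libraries labelled daf-16 double mutant, 29025 and 23255 CPM in those labelled pqm-1 double mutant, and 30882 and 28065 CPM in those labelled ets-4(-). Major sperm protein genes are near-identical copies, so their counts are uncertain. In ets-4(-) against wt at 4 °C, 6 of 6 muscle, 2 of 6 epidermal, 2 of 7 neuronal and 1 of 10 sperm genes rose. There 4 of 10 oocyte and embryo genes and 1 of 9 intestinal genes fell, beside 874 higher and 540 lower of all 14571 genes. The part of these lists in the scrm-4 difference was not tested.

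**Figure D3:**
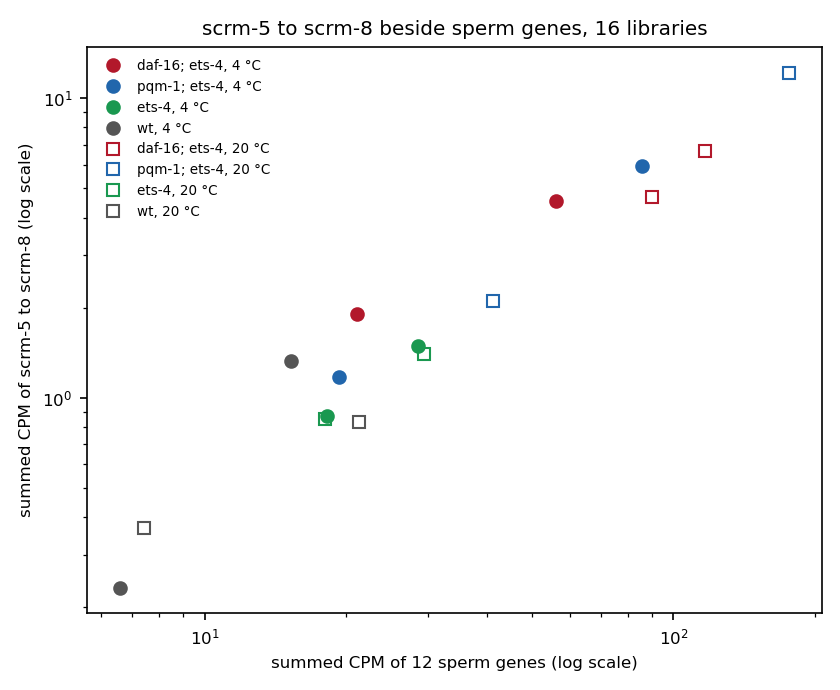
Summed CPM of scrm-5 to scrm-8 (vertical axis, log scale) against summed CPM of the 12 sperm genes (horizontal axis, log scale), 1 point per library; filled circles are 4 °C, open squares 20 °C and colours the strains. The points run from wt replicate 1 at 4 °C (0.233 and 6.60 CPM) to replicate 2 labelled pqm-1 double mutant at 20 °C (12.2 and 176 CPM).

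Few scrm genes passed the test between temperatures. Of the 7 tested genes, 2 fell at 4 °C in the daf-16 double mutants (scrm-1 and scrm-6, where 55.5% of all genes passed the test and 29.0% fell), 1 fell in the pqm-1 double mutants (scrm-6, where 53.5% passed and 26.8% fell), and none was called in ets-4(-) (45.9%) or in wt (43.2%), by edgeR or by DESeq2. At an unadjusted p under 0.05 there was 1 gene in ets-4(-) and none in wt. The median log2 fold change of the 7 was -0.67 in the daf-16 double mutants, -0.69 in the pqm-1 double mutants, 0.28 in ets-4(-) and 0.27 in wt, beside medians of all genes between -0.03 and -0.02.

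scrm-6 had 0.171 and 0.638 CPM at 4 °C in the daf-16 double mutants, against 1.17 and 1.37 CPM at 20 °C, and fell by 1.94 (SE 0.58, edgeR adjusted p = 0.0144). In the pqm-1 double mutants it had 0.168 and 0.864 CPM at 4 °C, against 0.582 and 1.95 CPM at 20 °C, with a fold change of -1.49 ± 0.55 (0.0399). The temperatures did not overlap in the daf-16 double mutants, as for scrm-1 and for 37.5% of all genes lower at 4 °C, and did overlap in the pqm-1 double mutants. Without the replicate block both calls were lost (adjusted p = 0.234 and 0.344). The call in the daf-16 double mutants was also lost without either of their 4 °C libraries (0.0634 and 0.152) or without replicate 1 at 20 °C (0.107).

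The call in the pqm-1 double mutants was lost without either of their 4 °C libraries (0.191 and 0.112), without replicate 2 at 20 °C (0.422, fold change -0.72), without replicate 1 of the daf-16 double mutants at 4 °C (0.0507), with 1 block for both temperatures (0.0742) and with DESeq2 (0.12). Without replicate 1 of the pqm-1 double mutants at 20 °C, scrm-5, scrm-7 and scrm-8 fell there as well (0.00669, 0.0322 and 0.00113), without replicate 2 of the daf-16 double mutants at 20 °C scrm-8 fell (0.0493), and in the daf-16 double mutants scrm-7 fell without their replicate 2 at 20 °C (0.0275) or without replicate 1 of the pqm-1 double mutants at 20 °C (0.0439). In the same contrasts the sperm list had 7 of 12 genes lower at 4 °C in the daf-16 double mutants and 5 of 12 in the pqm-1 double mutants (medians -1.85 and -1.30), the intestinal list 8 of 9 lower in both, and the muscle and epidermal lists each 2 of 6 lower in the daf-16 and 3 of 6 lower in the pqm-1 double mutants. Among all genes, 29.0% were lower at 4 °C in the daf-16 and 26.8% in the pqm-1 double mutants. The part of these lists in the scrm-6 result was not tested.

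The direct test of whether strains differ in their response to cold called none of the 7 scrm genes, by edgeR or by DESeq2, with 0 genes at an unadjusted p under 0.05 for ets-4(-) minus wt, 2 for the daf-16 double mutants minus ets-4(-) and 0 for the pqm-1 double mutants minus ets-4(-). This test called few genes in all, 0.00634%, 0.0571% and 0.114% of those tested in the same order. For scrm-4 the values were 0.33 ± 0.36, -0.48 ± 0.33 and -0.51 ± 0.33, given as a description.

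Of the other genes that set the sidedness of membrane lipids, tat-2 and tat-3 differed between strains. Of the flippases and their partners, the P4-type ATPases tat-1 to tat-6 and the chaperone gene chat-1, 7 were measured. At 4 °C 1 of 6 tested passed in the daf-16 double mutants against ets-4(-), 1 in the pqm-1 double mutants against ets-4(-) and 1 in ets-4(-) against wt, where 3.86%, 5.9% and 9.7% of all genes passed. At 20 °C 1, 2 and 0 of 7 passed in the same order of comparisons, beside 4.34%, 9.33% and 1.29% of all genes. tat-3 was lower in ets-4(-) than in wt at 4 °C (-0.17, adjusted p = 0.0496) and lower in the daf-16 double mutants than in ets-4(-) at 4 °C (-0.27) and at 20 °C (-0.49). tat-2 was higher in the pqm-1 double mutants than in ets-4(-), by 0.55 at 4 °C and 0.79 at 20 °C, where tat-3 was lower by a log2 fold change of -0.45. The anoctamins anoh-1 and anoh-2, the ABC transporter gene ced-7 and the Xkr8-related scramblase gene ced-8 passed no strain comparison. Of 13 genes for PS synthesis, exposure and engulfment, 12 were tested, and nrf-5, for a lipid-binding protein that takes part in PS transfer, alone passed a strain comparison (0.26 in the daf-16 double mutants against ets-4(-) at 4 °C). Without the replicate block the tat-3 call between ets-4(-) and wt at 4 °C was lost, since no gene passed. Against ets-4(-), 23 genes then passed for the daf-16 and 7 for the pqm-1 double mutants at 4 °C, and 4 and 4 at 20 °C. Which of the other calls of these lists were kept is not given here.

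Between temperatures, where 43.2% to 55.5% of all genes passed, more of the flippases were called. At 4 °C against 20 °C, 6 of 7 rose and 1 fell in the daf-16 double mutants, 6 rose and 1 fell in the pqm-1 double mutants, 5 rose and 1 fell in ets-4(-), and 4 rose in wt. tat-3 did not pass in ets-4(-), and tat-1, tat-3 and tat-6 did not pass in wt (-1.67 for tat-6, adjusted p = 0.0521). Their median log2 fold changes were 0.44, 0.37, 0.30 and 0.20 in that order, and 26.5%, 26.7%, 21.9% and 19.8% of all genes rose. tat-2 had the largest rise among them in each strain. It had 27.5 and 34.7 CPM in the daf-16 double mutants at 4 °C, against 9.54 and 15.3 CPM at 20 °C, and 19.1 and 20.2 CPM in wt at 4 °C, against 5.86 and 5.77 CPM at 20 °C. Its log2 fold changes were 1.35, 1.37, 1.60 and 1.75 in the daf-16 double mutants, the pqm-1 double mutants, ets-4(-) and wt. tat-1, which keeps PS inside in C. elegans, rose by 0.44, 0.40 and 0.30 in the 3 mutant strains, and its chaperone gene chat-1 by 0.26, 0.30, 0.28 and 0.20 in all 4. tat-6 fell in the 3 mutant strains (-2.50, -2.36 and -2.27) from levels under 1 CPM.

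Of the other scramblases and transporters, ced-7, which acts in the engulfment of dying cells, rose in all 4 strains (0.59, 0.49, 0.38 and 0.31), anoh-1 rose in ets-4(-) and wt (1.54 and 1.93), and ced-8 fell in wt (-0.48). The anoh-1 rises rest on few counts. It had 0.0985 and 0.0504 CPM in wt at 20 °C and 0.320 and 0.266 CPM at 4 °C. In ets-4(-) it had 0.126 and 0.285 CPM at 20 °C and 0.561 and 0.607 CPM at 4 °C. Of the 12 tested genes for PS synthesis, exposure and engulfment, 6 rose and 3 fell in the daf-16 double mutants, 6 rose and 3 fell in the pqm-1 double mutants, 3 rose and 2 fell in ets-4(-), and 4 rose and 2 fell in wt. In the same order of strains, 55.5%, 53.5%, 45.9% and 43.2% of all genes passed the test, and 26.5%, 26.7%, 21.9% and 19.8% rose. pssy-1, for a PS synthase, had 22.8 and 20.1 CPM in the daf-16 double mutants at 4 °C, against 37.4 and 48.3 CPM at 20 °C. It fell in all 4 strains (-0.99, -0.66, -0.81 and -1.01), as did psd-1, for the decarboxylase that turns PS into phosphatidylethanolamine (-0.31, -0.27, -0.29 and -0.30). The engulfment genes ced-2 and ced-12 rose in all 4 strains, ced-12 by 0.49, 0.57, 0.41 and 0.46. The other calls were ced-1 and ced-6, higher in both double mutants, ced-5, higher in the daf-16 double mutants, ced-10, higher in the pqm-1 double mutants, nrf-5, higher in the daf-16 double mutants and wt, and a second PS synthase gene, pssy-2, higher in the pqm-1 double mutants, ets-4(-) and wt. wah-1, whose protein acts with SCRM-1, fell in the daf-16 and the pqm-1 double mutants (-0.22 and -0.24). No gene of the 3 lists passed the test of a difference in cold response between strains.

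**Figure D4:**
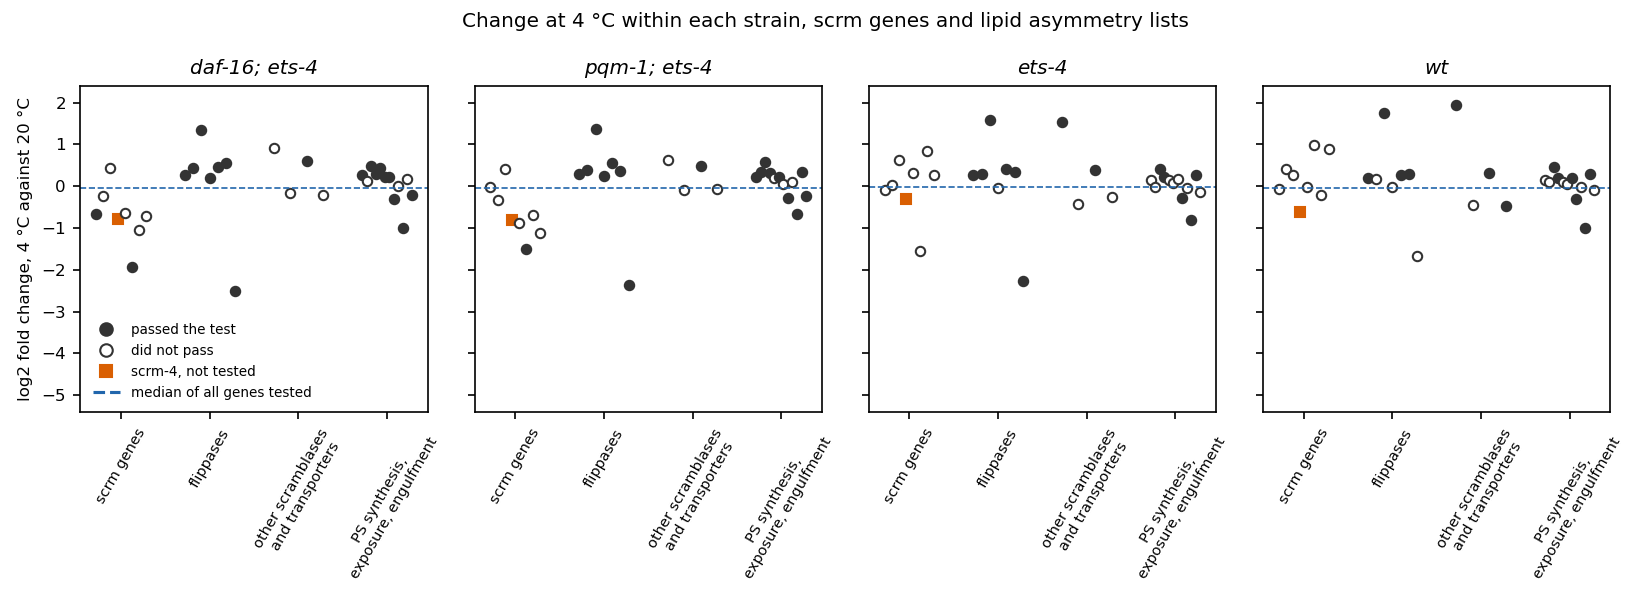
Log2 fold change at 4 °C against 20 °C (vertical axis) within each strain for the 8 scrm genes and 3 lists of genes for lipid asymmetry, PS synthesis, exposure and engulfment; filled points passed the edgeR test over all genes, open points did not, the orange square is scrm-4, which was not tested, and the dashed line is the median of all genes. tat-2 is the highest flippase in each strain (1.35, 1.37, 1.60 and 1.75), while the called scrm genes all lie below the line.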

How the data were processed

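Per the labels and the study's methods, the authors sequenced poly-A mRNA with 50-cycle single-end reads, mapped reads to WBcel235 with STAR, keeping uniquely mapped reads with up to 3 mismatches, and deposited raw counts of reads over the exons of protein-coding genes. Names and positions came from the Ensembl 115 annotation of WBcel235, which holds 20159 (98.6%) of the 20447 genes. The symbol ssp-9 belongs to 2 gene identifiers, of which WBGene00006040 was used.

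Counts were analysed with edgeR 4.0.16 in R 4.3.3 (TMM, filterByExpr, robust quasi-likelihood test, Benjamini-Hochberg adjustment over all genes, threshold 0.05). The 8 libraries of a temperature were fitted together for strain comparisons (14571 genes tested at 4 °C, 15405 at 20 °C) and all 16 for cold responses and their differences (15775 genes). All 8 scrm genes passed the filter in each fit. The replicate number was a block, separate for each temperature in the fit of all libraries, because the study's rule compares same-numbered replicates. Over 15775 genes, the differences between replicates correlated between strains with r of 0.456 to 0.657 at 4 °C and 0.329 to 0.580 at 20 °C. Across temperatures they correlated with r of 0.225 to 0.712, so 1 block for both temperatures was an alternative. SEs are the log2 fold change divided by the root of the F statistic. CPM values used TMM over 16 libraries, correlations log2 CPM with a prior count of 2, and a count of 0 was taken to allow up to 3 counts. Limits from a count of 0 cover counting error only. The methods were tested on simulated data. The study calls the 2 replicates biological.

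Alternatives were the fit without the block, RLE size factors, no filter on low counts, DESeq2 1.42.0, all 16 libraries in 1 fit, 1 block for both temperatures, a pseudocount of 1 in the 2-fold rule and leaving out each library. Library totals in place of TMM were chosen after seeing the data. The scrm genes and all lists were chosen with earlier results of these data known. Named are all scrm genes, list genes that passed a test, the mutated genes, the overlapping neighbour and, by highest Pearson r, 5 genes like scrm-4 and 1 like each other scrm gene. The lists were flippases (9 names, 7 matched), other scramblases and transporters, genes for PS synthesis, exposure and engulfment, and markers of sperm, oocyte and embryo, intestine, body wall muscle, epidermis and neurons. Summed marker levels ranged over the libraries from 5021 to 8960 CPM for oocyte and embryo, 15768 to 30882 CPM for intestine, 2833 to 6767 CPM for muscle, 482 to 1990 CPM for epidermis and 218 to 330 CPM for neurons.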

Additional observations from a re-analysis of the deposited data

Results flagged for a closer look

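The ets-4 transcript differed between ets-4(-) and wt in its change at 4 °C against 20 °C by -5.53 log2 units (SE 0.43, edgeR adjusted p = 0.0241 over 15775 genes). It was picked out because strains differed under the same contrast by a direct test. Without the replicate block no gene passed this test. At 4 °C it had 4.35 and 8.83 CPM in ets-4(-) and 60.3 and 84.5 CPM in wt, while at 20 °C it had 76.9 and 159 CPM in the libraries labelled ets-4(-) and 26.3 and 25.9 CPM in wt. No scrm gene was picked out in this way, and with 2 replicates per group no group was large enough for a check of single outlying samples.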

How the results depend on the processing

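Counts of called scrm genes, over the 7 tested, changed as follows. Without the replicate block the numbers were 0 for the daf-16 double mutants against ets-4(-) at 4 °C (1 with the block), 0 for the daf-16 double mutants and 0 for the pqm-1 double mutants against ets-4(-) at 20 °C (1 and 3), and for the cold response 1 in the daf-16 double mutants (2) and 0 in the pqm-1 double mutants (1). For the daf-16 double mutants against ets-4(-) at 20 °C, 2 were called with RLE size factors, 2 with no filter on low counts, 3 with DESeq2 and 3 with all 16 libraries in the fit. For the cold response of the pqm-1 double mutants, 0 were called with DESeq2 and 0 with 1 block for both temperatures. The cause was not tested.

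Leaving out 1 library at a time gave 0 to 3 called genes for the daf-16 and 0 to 4 for the pqm-1 double mutants against ets-4(-) at 4 °C, 0 to 1 for ets-4(-) against wt, 0 to 4 for the daf-16 and 0 to 4 for the pqm-1 double mutants against ets-4(-) at 20 °C, 1 to 3 for the cold response of the daf-16 and 0 to 4 for that of the pqm-1 double mutants, 1 to 5 genes past the 2-fold rule, and 2.52 to 3.43 for the scrm-4 log2 fold change between ets-4(-) and wt at 4 °C. Without wt replicate 2 at 4 °C the difference in scrm-4 cold response between ets-4(-) and wt was -0.10 and without wt replicate 1 it was 0.77, against 0.33 with both. Where the fit left a group with 1 library, that library was assumed to vary like the other groups. In the 2-fold rule, the remaining library of the group stood in for both replicates.

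Over all genes, calls without the block at 4 °C were 0 for ets-4(-) against wt (1414 with it), 23 for the daf-16 (562) and 7 for the pqm-1 double mutants (860), and at 20 °C 3, 4 and 4 (199, 669 and 1437). With all 16 libraries in 1 fit, ets-4(-) against wt called 733 at 4 °C and 317 at 20 °C, the pqm-1 double mutants 481 at 4 °C and 2909 at 20 °C, and the daf-16 double mutants 1608 at 20 °C. DESeq2 called 404 for ets-4(-) against wt at 20 °C and 1201 for the daf-16 double mutants, and no filter on low counts gave 351 for ets-4(-) against wt at 20 °C. The tests of a difference in cold response called 0, 0 and 0 genes without the block and 24, 63 and 117 with DESeq2, against 1, 9 and 18, and 4, 20 and 58 with no filter. With RLE size factors ets-4(-) minus wt called 2, and the pqm-1 double mutants minus ets-4(-) called 7 with library totals and 0 with 1 block for both temperatures. For ets-4(-) against wt at 4 °C, 889 genes were higher and 282 lower with library totals, against 874 and 540 with TMM, and for the pqm-1 double mutants at 20 °C, 1220 and 486 with DESeq2, against 1188 and 249. scrm-5 to scrm-8 had medians of 8.5 to 24.5 counts per library.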
